A study of Mus musculus with 4 samples.

Results

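The genes described here are 10 genes of the MHC class I pathway and the immunoproteasome, taken by symbol from the deposited table of 16015 genes. They were *H2-K1*, *H2-D1*, *B2m*, *Tap1*, *Tap2*, *Tapbp*, *Psmb8*, *Psmb9*, *Psmb10* and *Nlrc5*. All 10 were listed, and all 10 had a mean normalized count of at least 10, as did 13983 genes in all. The rule took them by name and not by a measured value, though results of these data were known when the genes were chosen.

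RNA was sequenced in bulk from colonic epithelial cells of 2 mice per group, control and *Bmal1* cKO, all given dextran sulfate sodium (DSS), a polysaccharide that injures the colonic epithelium. The *Bmal1* cKO mice carried *Villin-CreERT2* and *Bmal1* fl/fl, and the control mice, labelled WT, carried *Bmal1* fl/fl without the Cre, so both groups held the floxed allele. Cre was activated with tamoxifen injected on 5 consecutive days, and the *Villin* promoter drives it in the intestinal epithelium, so other cells of the colon keep *Bmal1*. Whether the control mice were injected too was not given. The mice were on a C57BL/6 background and 2 to 4 months old. DSS was given at 3% in the drinking water over 5 days, plain water followed over 2 days, and cells were collected on day 7. Crypts were released with EDTA and by scraping, a preparation that can hold cells other than epithelium. The comparison addresses how loss of the clock gene *Bmal1* in the epithelium changes gene expression in the inflamed colon.

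MHC class I molecules show peptides from inside the cell to CD8+ T cells and to natural killer cells. Proteasomes cut cytosolic proteins into peptides, and in the immunoproteasome the inducible subunits PSMB8, PSMB9 and PSMB10 take the places of PSMB5, PSMB6 and PSMB7. The peptides cross into the endoplasmic reticulum through the TAP1 and TAP2 transporter, which tapasin (*Tapbp*) links to empty class I molecules made of a heavy chain and beta-2-microglobulin (*B2m*). Interferon-gamma induces most of these genes, and NLRC5 is the transactivator that binds the class I promoters through an enhanceosome of RFX, CREB or ATF, and NF-Y proteins. Intestinal epithelial cells raise the pathway during inflammation.

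The libraries held 10312791 to 14156639 reads on the listed genes. A normalized count is the read count of a gene after division by a library's size factor. *Arntl*, the listed name of the targeted *Bmal1*, stood at 358 and 342 normalized counts in the control libraries and at 341 and 289 in the *Bmal1* cKO libraries. This was a log2 difference of -0.16, with a standard error (SE) of 0.14 and a limma adjusted p of 0.389. A fall in the targeted transcript was thus not called, but counts over the whole gene do not show which exons the reads came from, so they are no check of a deletion of part of the gene. Directions below compare libraries by these labels, *Bmal1* cKO minus control. Over the 13975 tested genes whose GC content was known, the log2 fold change went down as GC content went up (Spearman's rho -0.61, a description across genes, which are not independent replicates). Values are therefore given as the authors normalized them and, for the 10 genes and part of the others named, also after each library was corrected for GC content and exon length. The 2 mice of a group were separate samples. The limma p-values rest on the spread between them, moderated toward that of all tested genes at like levels.

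Among the 10 genes, the heavy chains *H2-K1* and *H2-D1* and the loading factor *Tapbp* fell in the *Bmal1* cKO libraries, and no gene rose. The other 7 did not pass the test. Over all tested genes, limma called 27.7% lower and 29.0% higher, so 3 of 10 lower is near the background share. edgeR on the recovered reads also called 3 genes lower and 0 higher, where 3812 and 3861 of the 13983 tested genes were so called. DESeq2 called 3 lower and 3 higher (*Tap1*, *Psmb9* and *Nlrc5*), where 3803 and 3719 of all tested genes were so called. In limma, 5 of the 10 had an unadjusted p under 0.05, of which 2 (*Psmb9* and *Nlrc5*) were higher in the *Bmal1* cKO libraries. The stricter adjusted threshold was already passed by 27.7% and 29.0% of all tested genes, lower and higher. Both *Bmal1* cKO libraries lay below both control libraries for 4 genes and above them for 2, against 41.7% and 40.3% of all tested genes. The median log2 fold change was 0.10 over the 10 genes and -0.04 over all tested genes. After the correction 0 genes were called lower and 2 (*Tap1* and *Psmb9*) higher, against 17.6% and 18.4% of all tested genes, and the median was 0.55 against -0.01. With each library scaled to its total reads in place of the deposited size factors, the median of all tested genes moved by -0.22, the calls over all genes went from 3871 lower and 4059 higher to 4885 lower and 3091 higher, and 4 of the 10 genes were called lower, the fourth being *Psmb10*.

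**Figure D1:**
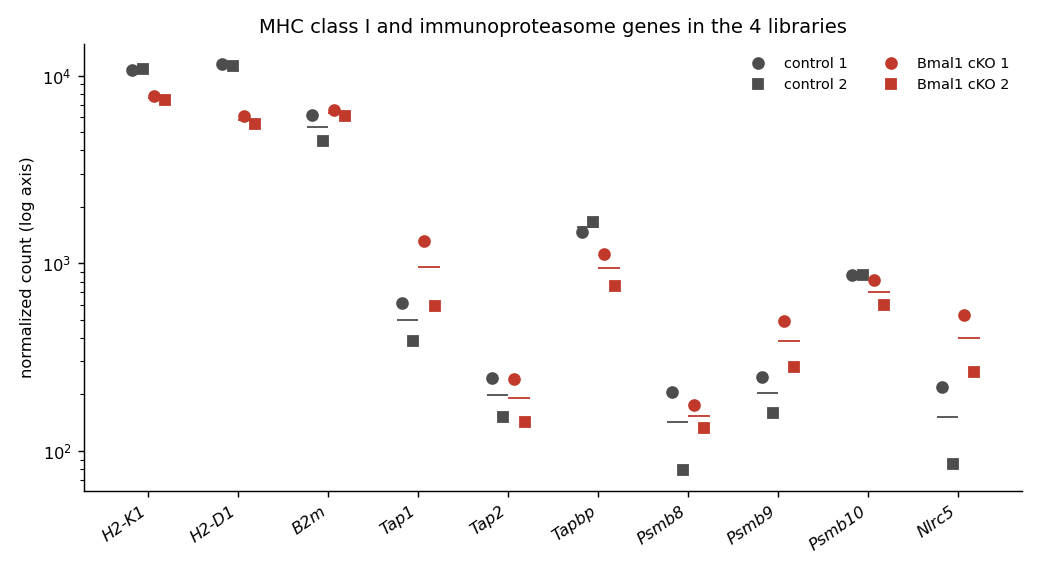
Normalized counts (log axis) of the 10 genes in the 4 libraries; circles are mouse 1 and squares mouse 2 of each group, and short lines are group means. *H2-D1* lies at 11525 and 11241 in the control libraries and at 6142 and 5514 in the *Bmal1* cKO libraries, while *Nlrc5* lies at 218 and 84.7 against 534 and 265.

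Of the 10 genes, 7 lie on mouse chromosome 17, in or near the MHC. The promoters of the classical heavy chains, of *B2m* and of *Tap1* are shown because the transactivator NLRC5 and the interferon and NF-kappaB pathways act on class I promoters. Each window is the 250 bases before the RefSeq start site in GRCm38.p6, on the strand of the gene, at chr17:34000348-34000597 on the minus strand for *H2-K1* and, on the plus strand, at chr17:35262844-35263093 for *H2-D1*, chr2:122147437-122147686 for *B2m* and chr17:34187306-34187555 for *Tap1*. Capitals mark matches on either strand to the E-box CACGTG, the interferon-gamma activated site TTCNNNGAA, 2 core forms of the interferon-stimulated response element (GAAANNGAA and GAANNGAAA), the kappaB consensus, TGACG (one arm of the cyclic AMP response element) and the CCAAT box.
H2-K1 promoter: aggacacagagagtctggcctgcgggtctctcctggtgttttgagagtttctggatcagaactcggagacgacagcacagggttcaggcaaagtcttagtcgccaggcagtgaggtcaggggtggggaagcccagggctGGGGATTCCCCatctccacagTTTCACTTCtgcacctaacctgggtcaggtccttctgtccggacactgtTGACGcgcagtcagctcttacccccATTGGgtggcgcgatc
H2-D1 promoter: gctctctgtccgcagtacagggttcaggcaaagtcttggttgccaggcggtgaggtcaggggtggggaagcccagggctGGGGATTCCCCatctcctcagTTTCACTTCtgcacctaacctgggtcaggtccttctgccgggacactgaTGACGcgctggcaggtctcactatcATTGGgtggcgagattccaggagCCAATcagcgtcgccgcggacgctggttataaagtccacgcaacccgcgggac
B2m promoter: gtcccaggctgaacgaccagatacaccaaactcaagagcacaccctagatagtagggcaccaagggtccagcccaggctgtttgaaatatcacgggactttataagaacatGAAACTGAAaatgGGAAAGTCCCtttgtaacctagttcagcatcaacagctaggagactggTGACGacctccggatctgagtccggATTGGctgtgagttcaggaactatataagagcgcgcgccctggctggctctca
Tap1 promoter: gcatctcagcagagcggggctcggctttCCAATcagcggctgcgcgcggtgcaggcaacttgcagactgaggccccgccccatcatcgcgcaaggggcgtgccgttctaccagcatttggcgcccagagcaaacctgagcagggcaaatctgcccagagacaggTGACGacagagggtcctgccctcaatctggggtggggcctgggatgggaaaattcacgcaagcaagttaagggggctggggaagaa
The *H2-K1* and *H2-D1* windows shared 166 of 190 bases (87.4%) at their best offset, with a run of 47 identical bases. Both held, in the same order, a kappaB match, a match to the second response element form, TGACG and CCAAT on the minus strand (printed as ATTGG), and *H2-D1* held a second CCAAT. The *B2m* window held a match to the first response element form, then kappaB, TGACG and CCAAT. In the *Tap1* window only TGACG and CCAAT were matched. Its RefSeq start lies 226 bases from that of *Psmb9*, which is read in the opposite direction, so most of this window is also that of *Psmb9*. Gene spans and exons below are from the GENCODE M21 annotation, with other starts. There *H2-D1* starts 364 bases before its RefSeq start, so the *H2-D1* window falls inside the span given for the gene.

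RefSeq windows were matched for 8 of the 10 genes, and those of *Tap2* and *Nlrc5* are not shown. CCAAT was found in 6 of the 8 and in 33.8% of all 32851 windows of the same length, and TGACG in 5 of the 8 and in 17.8% of all. The overlapping *Tap1* and *Psmb9* windows hold the same CCAAT and TGACG sites, which these counts include for both genes. The kappaB consensus was found in 3 (*H2-K1*, *H2-D1* and *B2m*) and in 7.25% of all. The response element forms were found in 1 (*B2m*, first form) and 2 (*H2-K1* and *H2-D1*, second form), against 7.13% and 6.31% of all. The E-box, the element that BMAL1 and CLOCK bind, was matched in 1 window (*Psmb10*) and in 6.02% of all, and the interferon-gamma activated site in 1 (*Psmb8*) and in 7.02% of all. The second response element form was added after the sequences were seen. A match describes letters in a window and not a bound site.

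*H2-K1* encodes the heavy chain of the classical molecule H-2K and lies on chromosome 17 of GRCm38 from 33996017 to 34000347. It had 10757 and 10921 normalized counts in the control libraries and 7854 and 7463 in the *Bmal1* cKO libraries. Both *Bmal1* cKO libraries were low and the groups did not overlap. It fell by 0.50 on the log2 scale (SE 0.10, limma adjusted p = 0.00997), from 10839 ± 116 to 7658 ± 277 (SD, n = 2), a level lower by a factor of 1.42. *H2-K1* has a GC content of 54.3%, and the tested genes between 53.3% and 55.2% GC had a median log2 fold change of -0.55, with 42.5% called lower and 5.72% higher. After the correction its log2 fold change was 0.04 (95% interval -0.20 to 0.29, limma adjusted p = 0.753), so the call and the direction were both lost. Without the correction the call was also lost when either *Bmal1* cKO mouse was left out (limma adjusted p = 0.0748 without mouse 1 and 0.101 without mouse 2), while the log2 fold change stayed at -0.54 and -0.46.

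*H2-D1*, the heavy chain gene of H-2D, lies on the same chromosome from 35262730 to 35267499. Its normalized counts were 11525 and 11241 in the control libraries and 6142 and 5514 in the *Bmal1* cKO libraries. The groups were far apart compared with the spread within them. *H2-D1* fell by 0.97 on the log2 scale (SE 0.11, limma adjusted p = 0.00143), the largest fall among the 10 genes, and the level was lower by a factor of 1.96. Its GC content of 55.9% puts it among genes (55.2% to 57.6%) with a median of -0.82, of which 58.5% were called lower and 1.86% higher. Corrected, its log2 fold change was -0.23 (95% interval -0.48 to 0.03, limma adjusted p = 0.130), which kept the direction but not the call.

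*B2m*, the light chain gene shared by all class I molecules, lies on chromosome 2 from 122147686 to 122153083. It had 6217 and 4480 normalized counts in the control libraries and 6556 and 6079 in the *Bmal1* cKO libraries. The *Bmal1* cKO mouse 2 fell between the control mice, so the groups overlapped. The log2 fold change was 0.26 (SE 0.17, limma adjusted p = 0.245), with a 95% interval from -0.18 to 0.69, and it was 0.49 without control mouse 1 (called higher, limma adjusted p = 0.0457) and 0.022 without control mouse 2 (limma adjusted p = 0.882). *B2m* has a low GC content of 41.2%, at the upper edge of the tested genes between 25.65% and 41.21% GC. Their median log2 fold change was 1.13 and 71.2% were called higher. The genes next above, up to 43.74% GC, had a median of 0.79 with 60.8% called higher. After the correction the sign of *B2m* turned, to -0.53 (95% interval -1.01 to -0.05, limma adjusted p = 0.0793).

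Heavy chain and light chain did not keep 1 ratio in the values as deposited. The log2 ratio of *H2-D1* to *B2m*, both per kilobase of exon, was -0.69 and -0.26 in the control libraries and -1.68 and -1.73 in the *Bmal1* cKO libraries. For *H2-K1* to *B2m* it was -0.98 and -0.49 against -1.51 and -1.48. Neither ratio overlapped between the groups, and both differences turned sign after the correction, from -1.23 to 0.30 and from -0.76 to 0.57. These 2 ratios were chosen after the values were seen. For ratios, 2 libraries against 2 cannot give a two-sided exact permutation p below 0.333, so no test is given.

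*Tap1* encodes a subunit of the peptide transporter and lies on chromosome 17 from 34187553 to 34197225. Its normalized counts were 613 and 386 in the control libraries and 1316 and 591 in the *Bmal1* cKO libraries. The *Bmal1* cKO mouse 1 stood above the rest, and mouse 2 lay just under control mouse 1. As deposited the log2 fold change was 0.86 (SE 0.42, limma adjusted p = 0.131). With a GC content of 55.8%, in the range where the median was -0.82, its corrected log2 fold change was 1.57 (95% interval 0.57 to 2.58, limma adjusted p = 0.0323), and it rose by that fit. The log2 fold change as deposited was 0.28 without *Bmal1* cKO mouse 1 and 1.43 without mouse 2.

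*Tap2* encodes the other subunit of the transporter, on chromosome 17 from 34203527 to 34216321. It had 245 and 151 normalized counts in the control libraries and 242 and 142 in the *Bmal1* cKO libraries. In both groups mouse 1 was high and mouse 2 low, and the group means, 198 ± 66.6 and 192 ± 70.6 (SD, n = 2), were closer than the mice within a group. The log2 fold change was -0.05 (95% interval -0.94 to 0.83, limma adjusted p = 0.905), and after the correction 0.82 (limma adjusted p = 0.108). The level of *Tap1* over *Tap2* within a library, per kilobase and on the log2 scale, was 0.79 and 0.82 in the control libraries and 1.91 and 1.52 in the *Bmal1* cKO libraries. The groups did not overlap, and the difference of 0.91 became 0.75 after the correction. This ratio too was chosen after the values were seen.

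*Tapbp* encodes tapasin, on chromosome 17 from 33915899 to 33929292. Its normalized counts were 1463 and 1660 in the control libraries and 1128 and 758 in the *Bmal1* cKO libraries. Both *Bmal1* cKO libraries were below both controls, with mouse 2 the lowest. *Tapbp* fell by 0.75 on the log2 scale (SE 0.20, limma adjusted p = 0.0249), to a level lower by a factor of 1.68. At 57.1% GC it too belongs to the genes with a median of -0.82, and after the correction the log2 fold change was 0.15 (95% interval -0.29 to 0.59, limma adjusted p = 0.525). Leaving out 1 mouse at a time gave -1.04 to -0.47 without the correction, and the call held only without *Bmal1* cKO mouse 1 (limma adjusted p = 0.0200).

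**Figure D2:**
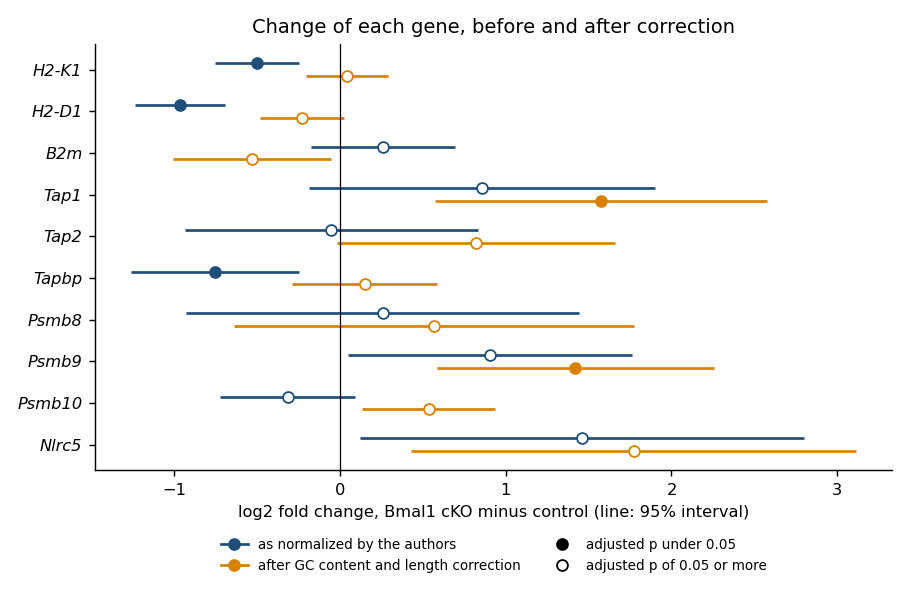
Log2 fold change of each gene (*Bmal1* cKO minus control) as normalized by the authors (blue) and after correction for GC content and exon length (orange); lines are 95% intervals from limma and filled points have an adjusted p under 0.05. The 3 filled blue points are *H2-K1* (-0.50), *H2-D1* (-0.97) and *Tapbp* (-0.75), and the 2 filled orange points are *Tap1* (1.57) and *Psmb9* (1.42).

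Among the inducible proteasome subunits, *Psmb9* (beta1i, LMP2) lies head to head with *Tap1*, on chromosome 17 from 34181987 to 34187764. It had 247 and 158 normalized counts in the control libraries and 492 and 280 in the *Bmal1* cKO libraries. Both *Bmal1* cKO libraries were above both controls. The log2 fold change was 0.90 (95% interval 0.05 to 1.76, limma adjusted p = 0.0684) as deposited, and 1.42 (limma adjusted p = 0.0265) after the correction, by which it rose. Leaving out 1 mouse moved the value as deposited between 0.50 (without *Bmal1* cKO mouse 1) and 1.31 (without *Bmal1* cKO mouse 2), and it was 0.59 without control mouse 2. Reads on *Psmb9* and *Tap1* kept nearly the same proportion in the 4 libraries, with a log2 ratio per kilobase of 0.73 and 0.70 in the control libraries and 0.84 and 0.50 in the *Bmal1* cKO libraries. In GENCODE M21, exons of the 2 genes share 212 bases on opposite strands (3.87% of the exon bases of *Tap1* and 5.79% of those of *Psmb9*). Strandedness of the counting is not given in the sources used here, so reads from there cannot be told apart.

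*Psmb8* (beta5i, LMP7) lies on chromosome 17 from 34197721 to 34201454. Its levels in the control libraries were 206 and 78.8 normalized counts, and those in the *Bmal1* cKO libraries 176 and 132. The *Bmal1* cKO mice lay between the control mice, and the log2 fold change of 0.26 had a 95% interval from -0.93 to 1.45 (limma adjusted p = 0.660), and it was 0.57 after the correction (limma adjusted p = 0.384). *Psmb10* (beta2i, MECL-1), on chromosome 8 from 105935735 to 105938444, had 868 and 871 against 813 and 600. Both *Bmal1* cKO libraries were lower, with a log2 fold change of -0.32 (SE 0.16, limma adjusted p = 0.147), and after the correction the value was 0.54 (95% interval 0.13 to 0.94, limma adjusted p = 0.0503). Neither gene passed the threshold in either fit, though *Psmb10* was called lower without *Bmal1* cKO mouse 1 (-0.53, limma adjusted p = 0.0379) and was at -0.10 without mouse 2 (limma adjusted p = 0.490), and *Psmb8* ran from -0.43 to 0.95 when 1 mouse was left out.

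The inducible subunits were set against the subunits they replace, with no test of a difference between the ratios. The log2 ratio of *Psmb9* to *Psmb6*, per kilobase of exon, was -3.10 and -3.60 in the control libraries and -1.32 and -1.88 in the *Bmal1* cKO libraries. These groups did not overlap, and the ratio was higher by 1.75, which is 3.36-fold, and by 2.05 after the correction. *Psmb6* itself fell by 0.84 on the log2 scale (limma adjusted p = 0.00381), from 1080 and 984 to 630 and 526 normalized counts. The ratio of *Psmb8* to *Psmb5* was -4.36 and -5.81 against -4.62 and -4.77, and that of *Psmb10* to *Psmb7* 1.46 and 1.40 against 1.65 and 0.96. Both overlapped between the groups. With the correction the first difference moved from 0.39 to -0.20 and the second from -0.13 to 1.65. The first was 1.12 without control mouse 1 and -0.34 without control mouse 2. The sign of the second depended on which *Bmal1* cKO mouse was left out, since 1.65 lay above both control values and 0.96 below them. *Psmb7* has 40.8% GC and *Psmb10* 56.5%. *Psmb5* (log2 fold change -0.13, limma adjusted p = 0.383) and *Psmb7* (-0.19, limma adjusted p = 0.244) did not pass the test as deposited. After the correction *Psmb6* and *Psmb7* were called lower and *Psmb5* higher.

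**Figure D3:**
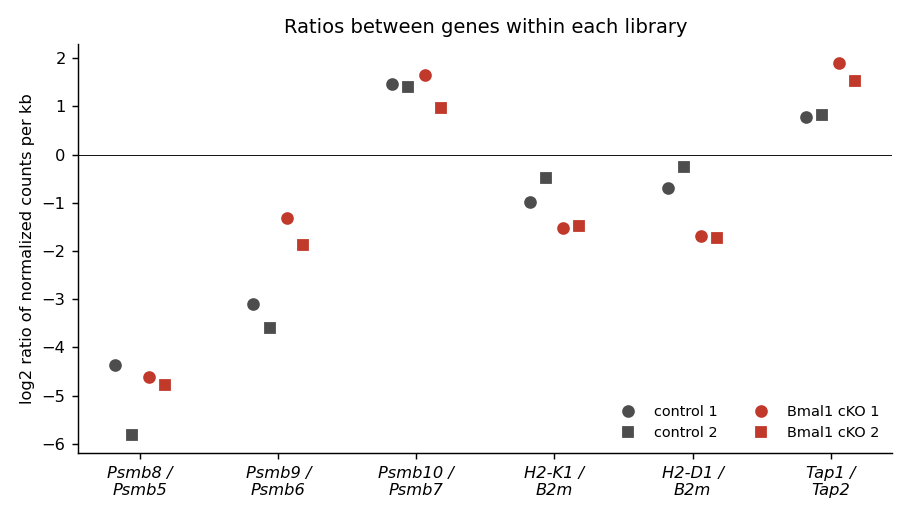
Log2 ratio of normalized counts per kilobase of exon for 6 pairs of genes in the 4 libraries. *Psmb9* over *Psmb6* lies at -3.10 and -3.60 in the control libraries and at -1.32 and -1.88 in the *Bmal1* cKO libraries, while *Psmb8* over *Psmb5* and *Psmb10* over *Psmb7* overlap between the groups.

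*Nlrc5*, the class I transactivator, lies on chromosome 8 from 94434356 to 94527272. It had 218 and 84.7 normalized counts in the control libraries and 534 and 265 in the *Bmal1* cKO libraries. Both *Bmal1* cKO libraries were above both controls, and in each group mouse 1 was more than double mouse 2. Its log2 fold change of 1.46 was the largest of the 10 in size (SE 0.53), and with a 95% interval from 0.12 to 2.80 it did not pass the adjusted threshold (limma adjusted p = 0.0626). After the correction the value was 1.77 (limma adjusted p = 0.0518). It lay between 0.78 and 2.14 when 1 mouse was left out, lowest without control mouse 2 and highest without control mouse 1.

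Of the 9982 tested genes with a mean of at least 100, the 5 whose profile over the 4 libraries was nearest to that of *Nlrc5* were *Rdx*, *Gbp3*, *Aspa*, *Cmpk2* and *Gbp5*. The likeness is the root mean square difference of log2 values after each gene is centred on its mean, and it ran from 0.12 for *Rdx* to 0.30 for *Gbp5*. *Psmb9* came 15th with 0.38 and *Tap1* 16th with 0.39. *H2-D1* lay at 1.33 and *H2-K1* at 1.14, ranks 8207 and 7054. With 4 libraries this is a description only.

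The mice of one group also differed. Mouse 1 was above mouse 2 for 7 of the 10 genes in the control group and for 10 of 10 in the *Bmal1* cKO group, with a median log2 difference of 0.55 and 0.50. Over all tested genes 7144 and 6928 of 13983 were higher in mouse 1, with medians of 0.01 and 0.00. *H2-K1*, *Tapbp* and *Psmb10* were the 3 genes at which control mouse 1 was the lower of the pair.

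Per kilobase of annotated exon, and over the 4 libraries, *B2m* was the highest of the 10, with a mean level of 6783 and a range from 5209 to 7624. *H2-D1* (3337) and *H2-K1* (3148) followed with ranges that overlapped each other and not that of *B2m*. Within the groups their order turned, with means of 4414 for *H2-D1* and 3689 for *H2-K1* in the control libraries and of 2260 and 2607 in the *Bmal1* cKO libraries. No library of any other gene was above 511 per kilobase. Their means ran from 462 for *Psmb10* and 345 for *Tapbp* through 133 for *Tap1*, 80.4 for *Psmb9*, 51.5 for *Tap2* and 43.9 for *Psmb8* to 32.4 for *Nlrc5*, and each overlapped the next in range. In the *Bmal1* cKO libraries alone the mean of *Nlrc5* (47.0) was above that of *Psmb8* (45.6). The lengths count every annotated exon, which lowers the level of a gene whose main transcript is short. Exons of predicted genes on the opposite strand also cover 24.9% of the exon bases of *Tapbp* and 14.7% of those of *Psmb8*, and 2 such genes cover 14.1% and 4.36% of those of *Tap2*. Another opposite-strand gene covers 0.918% of those of *Nlrc5*. On the same strand, exons of *Zbtb22* cover 4.11% of those of *Tapbp*.

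**Figure D4:**
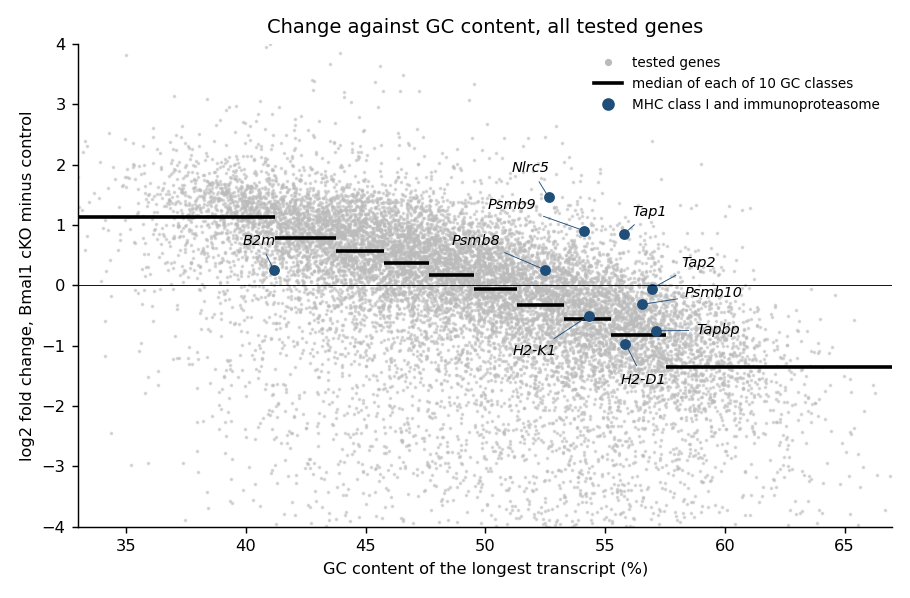
Log2 fold change (*Bmal1* cKO minus control) against the GC content of the longest transcript for the tested genes (grey), with the median of each of 10 classes of genes by GC content (black) and the 10 genes (blue); 358 genes lie outside the axes. *H2-K1*, *H2-D1* and *Tapbp* lie near the median of genes of like GC content, *Tap1*, *Tap2*, *Psmb8*, *Psmb9*, *Psmb10* and *Nlrc5* above it, and *B2m* below it.

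Of 25 other class I heavy chain genes, 16 were listed and tested, of which 3 fell and 4 rose, against 27.7% and 29.0% of all tested genes. Their median log2 fold change was -0.15 against -0.04 over all tested genes. The heavy chain genes, *H2-K1* and *H2-D1* included, are alike in sequence, so reads can be shared between them and single values are uncertain. *H2-Q2* rose from 346 and 457 normalized counts to 1022 and 975 (log2 fold change 1.32, limma adjusted p = 0.00172, and 2.47 after the correction), and *H2-Q1* from 91.2 and 122 to 204 and 231 (1.03, adjusted p = 0.0123). *H2-T24* (1.27, adjusted p = 0.0173) and the lipid-presenting *Cd1d1* (1.02, adjusted p = 0.0111) were the others that rose by limma. *H2-T22*, a ligand gene for some gamma-delta T cells, fell from 664 and 596 to 467 and 426 (-0.50, limma adjusted p = 0.0184). *Fcgrt*, the heavy chain of the neonatal Fc receptor, fell by 0.78 (limma adjusted p = 0.0387), and *H2-M2* fell from 43 and 17 reads to 4 and 1 (limma adjusted p = 0.0394). After the correction 2 were called lower and 4 higher, where all tested genes gave 17.6% and 18.4%, the median was 0.09, and *Fcgrt* was at -0.02.

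The remaining 9 did not pass the test. *H2-Q6* had 692 and 169 normalized counts in the control libraries and 121 and 98.7 in the *Bmal1* cKO libraries, and *H2-Q7* 620 and 178 against 124 and 109. In both, control mouse 1 stood far above the other 3 libraries, with log2 fold changes of -1.64 (limma adjusted p = 0.0762) and -1.50 (limma adjusted p = 0.0700). *Mr1*, which presents metabolites of vitamin B2, had 53 and 3 reads in the control libraries and 0 in both *Bmal1* cKO libraries. The log2 fold changes of the rest were -0.68 for *H2-Q4*, -0.23 for *H2-T23* (Qa-1), -0.07 for *H2-M3*, -0.06 for *H2-Q10*, 0.31 for the iron regulator *Hfe* and 1.04 for *H2-T3*. After the correction *H2-T23* was at 0.34, *H2-M3* at 0.12 and *H2-Q10* at 0.33, each with its sign turned and not called. Summed over the 14 listed *H2* heavy chain genes, the normalized counts were 27222 and 25935 in the control libraries and 18164 and 16639 in the *Bmal1* cKO libraries. *H2-K1* and *H2-D1* made up 81.9% and 85.5% of the sum in the control libraries and 77.1% and 78.0% in the *Bmal1* cKO libraries.

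Of the 6 partners of peptide trimming and loading, 4 rose and none fell, with a median log2 fold change of 0.79, beside 29.0% higher and 27.7% lower over all tested genes. *Erap1*, the aminopeptidase that trims peptides in the endoplasmic reticulum, had 1424 and 1420 normalized counts in the control libraries and 3769 and 3654 in the *Bmal1* cKO libraries (log2 fold change 1.38, limma adjusted p = 0.000533). The chaperone *Canx* rose from 5071 and 4887 to 10186 and 11082 (1.09, limma adjusted p = 0.000892), and the oxidoreductase *Pdia3* by 0.54 (limma adjusted p = 0.00868). *Uggt1*, the glucosyltransferase of glycoprotein quality control, was the other that rose. *Calr* (0.25, limma adjusted p = 0.125) and the tapasin-related *Tapbpl* (0.40, limma adjusted p = 0.109) were higher in both *Bmal1* cKO libraries without passing. After the correction 3 of the 6 were called higher (18.4% of all tested genes), namely *Erap1* (0.46), *Uggt1* (0.92) and *Tapbpl* (0.82), whereas *Canx* (0.27) and *Pdia3* (0.20) were not.

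Among 10 activators and assembly factors of the proteasome, 3 rose and none fell, with a median log2 fold change of 0.19. The share that rose was near the 29.0% of all tested genes, of which 27.7% fell. The assembly factor *Pomp* rose from 1006 and 939 normalized counts to 2084 and 1595 (log2 fold change 0.91, limma adjusted p = 0.00470). The interferon-inducible PA28 subunits did not pass, with 0.05 for *Psme1* (limma adjusted p = 0.758) and 0.33 for *Psme2* (limma adjusted p = 0.0567). After the correction both were called higher (0.85 and 0.70), and the counts for the list were 1 lower and 7 higher (17.6% and 18.4% of all tested genes). Of the 11 other subunits of the core particle, 6 rose and 1 fell (median 0.49), and 6 and 2 did so after the correction (median 0.46), read against the same shares of all tested genes.

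Of 15 factors that act on class I promoters or in interferon signalling, 7 rose and none fell (median log2 fold change 0.28), and 6 and none did so after the correction (median 0.21). Of all tested genes, 29.0% rose and 27.7% fell, and 18.4% and 17.6% did so after the correction. *Stat2* (0.79, limma adjusted p = 0.0484) and *Irf9* (0.71, limma adjusted p = 0.0192), which act together in type I interferon signalling, rose. *Irf2*, a repressor of interferon targets that also drives class I genes, rose by 0.39 (limma adjusted p = 0.0258) and was at -0.05 after the correction. *Irf1* had 1184 and 1029 against 1459 and 1226 (0.28, limma adjusted p = 0.121, 0.62 after the correction, where it was called higher). The RFX subunits *Rfx5* (-0.17), *Rfxap* (0.04) and *Rfxank* (0.14), *Irf8* (-0.22) and the class II transactivator *Ciita* (-1.41, limma adjusted p = 0.173) did not pass as deposited. After the correction *Rfxank* was called higher (0.76, limma adjusted p = 0.0441). *Ciita* was then at -0.75. It had 285 in control mouse 1 and 60.1, 69.9 and 33.8 in the other libraries.

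For the signalling of interferon-gamma itself, 9 of 10 genes were tested, of which 3 rose and 2 fell (median log2 fold change 0.19), and 3 and 3 did so after the correction (median 0.06). As deposited these shares were near those of all tested genes (29.0% and 27.7%), and corrected they stand beside 18.4% and 17.6%. The receptor chain *Ifngr1* rose from 3400 and 3328 normalized counts to 6157 and 5811 (log2 fold change 0.83, limma adjusted p = 0.00135), whereas *Ifngr2* fell from 1332 and 1418 to 1050 and 1037 (-0.40, limma adjusted p = 0.0147). Of the kinases, *Jak2* rose by 0.69 (limma adjusted p = 0.00648) and was at 0.06 after the correction, and *Jak1* did not pass (0.19, and -0.12 after the correction). The feedback inhibitor *Socs1* was at -0.98 (limma adjusted p = 0.225), with control mouse 1 at 132 normalized counts and the other libraries between 29.7 and 43.2, and its sign turned after the correction (0.15). *Ifng*, the gene of the cytokine, was below the filter, with 2 and 0 reads in the control libraries and 11 and 4 in the *Bmal1* cKO libraries.

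Markers of other cells moved with the groups. All 10 epithelial markers had reads in every library, and their sum ranged from 194689 to 258664 normalized counts in the control libraries and from 157133 to 178123 in the *Bmal1* cKO libraries. Of these 10, *Krt18* and *Muc2* fell and *Krt20* rose, and 0 fell and 4 rose after the correction. Over all tested genes 27.7% fell and 29.0% rose, and 17.6% and 18.4% did so after the correction, to be read beside each marker count here. *Muc2*, the mucin of goblet cells, held most of the difference between the sums, with 62753 and 101737 against 24129 and 37690. The sum of 20 leukocyte markers was 16927 and 26589 against 4224 and 4000, and 15 of the 18 tested fell (12 after the correction), with a median log2 fold change of -3.05. A few genes carried the sums. *S100a8* had 1424 and 8066 and *S100a9* 1096 and 7187 in the control libraries, and *Ly6g* alone had 2918 and 2549 in the *Bmal1* cKO libraries. Gene by gene, control mouse 1 was above mouse 2 for 14 of the 18 tested, against the order of the sums. *Trac* was at 0 reads in *Bmal1* cKO mouse 1 and *Flt3* in mouse 2. The 5 endothelial markers all fell, from sums of 1459 and 349 to 59.7 and 79.8, with *Emcn* at 0 in both *Bmal1* cKO libraries. Of 8 fibroblast and smooth muscle markers 7 fell, from 14516 and 3301 to 438 and 469, with *Des* at 0 in *Bmal1* cKO mouse 1. In bulk samples fewer cells of a type and less RNA per cell cannot be told apart. These cells also express class I genes, and their part in the lower *H2-K1*, *H2-D1* and *Tapbp* was not tested.

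**Figure D5:**
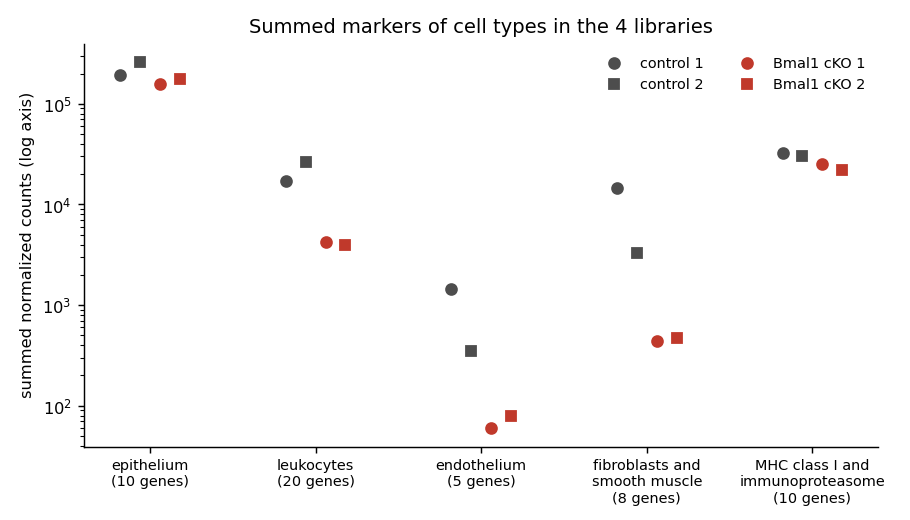
Summed normalized counts (log axis) of the marker genes of 4 cell types and of the 10 genes in the 4 libraries. Leukocyte markers sum to 16927 and 26589 in the control libraries and to 4224 and 4000 in the *Bmal1* cKO libraries, while the 10 genes sum to 32360 and 30032 against 25252 and 21823.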

How the data were processed

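The deposited table holds, for 2 control and 2 *Bmal1* cKO libraries, a signal made by the authors: gene counts divided by a size factor. Alignment to GRCm38 with STAR and normalization with DESeq2 come from the methods and the submitters' processing notes. The counter, its use of strand and the annotation release are not given in the sources used here, and the labels and the methods name different library kits. The deposited log2 fold changes, their standard errors, a test statistic (a score) and p-value columns, and the authors' mean, hold the authors' own comparison and were not used.

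Dividing each library's values by what 1 read is worth gave whole numbers for 100% of them (tolerance 0.01), which are the reads. Reads carry no molecular identifiers, so counts cover counting error only. Fold changes are on the log2(value + 1) scale, on which low genes change less than their reads do. Genes with a mean normalized count of 10 or more (13983) were tested with limma 3.58.1 (mean-variance trend, two-sided, Benjamini-Hochberg adjustment over all tested genes, threshold 0.05). "Rose" and "fell" mean past this threshold. Correction for GC content and exon length was by loess (span 0.3) within each library, with summed exon lengths and the GC content of the longest transcript from GENCODE M21. Alternatives were pseudocounts of 0.5 and 5, no filter or a mean of at least 50, scaling by library totals or TMM, edgeR 4.0.16 and DESeq2 1.42.0 on the reads, a replicate block, and leaving out each mouse. The limma fits (uncorrected, corrected and with the block), edgeR and DESeq2 were run on simulated data. These held no trend with GC content or length, the same dispersion for all genes and no replicate effect. They therefore cannot show how the correction or the block performs on data like the present ones.

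The genes, lists, markers and the rule for naming were chosen with earlier results of these data known. Named were the 10 genes, every other heavy chain tested, a set of partners and regulators, *Arntl* and the 5 nearest profiles to *Nlrc5*. *Uggt1*, named to complete a count, was added after its values were seen. Some items of the lists are counted but not reported here.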

Additional observations from a re-analysis of the deposited data

How the results depend on the processing

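Of 150 alternative log2 fold changes of the 10 genes, 116 kept their direction and their side of the threshold and 13 changed sign. In all, 11 lost the call and 16 gained one, those that changed sign included. The correction for GC content and length turned *H2-K1* (0.042), *B2m* (-0.53), *Tap2* (0.82), *Tapbp* (0.15) and *Psmb10* (0.54), with or without the replicate block. Leaving out 1 mouse turned *Tap2* (0.30 without control mouse 1 and 0.33 without *Bmal1* cKO mouse 2) and *Psmb8* (-0.43 without control mouse 2, within a range up to 0.95). A lone mouse is then assumed to vary like the other group.

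Genes called numbered 3 lower and 3 higher with DESeq2, 0 and 2 after the correction, and 1 to 3 lower (lowest without *Bmal1* cKO mouse 2) and 0 to 1 higher (*B2m*, without control mouse 1) when 1 mouse was left out. *H2-D1* kept its call in those 4 fits, with limma adjusted p between 0.0171 and 0.0313. *H2-K1* lost it without either *Bmal1* cKO mouse (limma adjusted p up to 0.101). Over all tested genes the correction left 2458 lower and 2570 higher, and leaving out 1 mouse 2205 (without *Bmal1* cKO mouse 2) to 2852 lower and 2654 to 3154 higher. The log2 ratio difference of *Psmb10* to *Psmb7* became 1.65 with the correction.

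Whether same-numbered mice formed pairs is not given in the sources used here. They deviated with a correlation of -0.09 across genes, which with 2 mice per group cannot settle it. With the replicate block 3 genes were called lower and 3 higher (*Tap1*, *Psmb9* and *Nlrc5*, limma adjusted p = 0.00702, 0.00701 and 0.00226), against 3789 lower and 3899 higher of all tested. With block and correction 1 (*B2m*) was lower and 4 (those 3 and *Tap2*) higher, of 2077 and 2177. With only 2 pairs this is no evidence of pairing.

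Of the lists, lower calls among other heavy chains numbered 5 with library totals, 6 with DESeq2, 6 with the replicate block, 0 with block and correction, and 0 to 5 when 1 mouse was left out, with 1 to 3 higher. Library totals also gave 2 replaced subunits, 3 activators or assembly factors and 2 core subunits lower, 4 promoter factors higher, and 5 epithelial markers lower and 0 higher. The correction, with or without the block, gave 2 replaced subunits lower and 1 higher, 1 activator or assembly factor lower and 7 (with the block 5) higher, 2 core subunits lower, and 4 (with the block 3) epithelial markers higher. Epithelial markers lower numbered 5 with DESeq2 and 0 after the correction. Among promoter factors 1 was lower with the block. Leaving out 1 mouse gave 0 to 1 core subunits lower, 0 to 1 promoter factors lower and 4 to 5 higher, 1 to 2 interferon-gamma signalling genes lower, 1 to 4 epithelial markers lower and 0 to 1 higher, and 5 to 15 leukocyte, 1 to 5 endothelial and 4 to 8 fibroblast and smooth muscle markers lower, these 3 lists being lowest with a *Bmal1* cKO mouse left out. To be read beside these counts, all tested genes gave 4885 lower and 3091 higher with library totals, and 3803 and 3719 with DESeq2. They gave 3789 and 3899 with the block, 2458 and 2570 with the correction, and 2077 and 2177 with both. The cause of the moves between settings was not tested.

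Groups of 2 mice are too small for an outlier test. Depth limits the genes with few reads, such as *H2-M2*, *Mr1* and *Ifng*.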
